A study of Bos taurus with 30 samples.

Results

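The respiratory chain genes described here are 107 of the 35092 genes in the count table, 13 encoded by the mitochondrial genome and 94 by the nucleus. They were chosen by name and abundance. Mitochondrial members are the 13 protein-coding genes of that genome, and nuclear members carry symbols of the NDUFA, NDUFB, NDUFC, NDUFS and NDUFV series, SDHA to SDHD, CYC1, or symbols that begin with UQCR, COX4 to COX8 or ATP5. A member needed at least 10 counts in at least 3 libraries. The rule named 110 genes, of which 3 did not reach that limit. NDUFA1 and COX8B were listed at 0 in every library, and COX6A2 had at most 6 counts. Just inside the limit were COX4I2, with 10 counts or more in 3 libraries, COX7ALP1 in 13 and NDUFA4L2 in 14.

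The respiratory chain sits in the inner mitochondrial membrane. Complexes I to IV carry electrons from NADH and succinate to oxygen, and complexes I, III and IV pump protons that drive ATP synthesis by complex V. Its subunits come from both genomes: the mitochondrial genome gives some core subunits of complexes I, III, IV and V, transcribed as long polycistronic RNAs, while all of complex II, the remaining core subunits and the accessory subunits are made from nuclear mRNAs and imported. In mammals, the number of mitochondria per cell is set in the oocyte and diluted by cleavage, and replication of mitochondrial DNA resumes around the blastocyst stage.

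The libraries were made from 17 bovine (Bos taurus) conceptuses at day 15, when the embryo elongates before implantation. The in vitro produced (IVP) embryos came from slaughterhouse oocytes that were matured, fertilized and cultured without serum up to transfer at day 7. The in vivo (IVV) embryos came from superovulated, inseminated donors. Each conceptus was divided into the embryonic disc (ED), which holds the epiblast that forms the fetus, and the extra-embryonic membranes (EEM), made of trophectoderm and hypoblast. There were 7 IVP and 9 IVV libraries of the ED, and 6 IVP and 8 IVV libraries of the EEM, and 13 embryos (5 IVP, 8 IVV) gave both. A few cows carried or donated the embryos of each procedure, so procedure and cow cannot be told apart, and embryo sex is not in the labels. The paper reports that IVP conceptuses were shorter than IVV ones and that fewer of them had a disc. Those without a disc were discarded. Size and this selection thus went with procedure, and their part was not tested.

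Library totals ran from 48713218 to 63037371 counts, and TMM scaling factors from 0.802 to 1.22. The disc marker POU5F1 had a median of 29.3 CPM (counts scaled to a common library total with TMM factors) in the ED of IVP and 68.7 in the ED of IVV embryos, against 1.59 and 1.22 in the EEM. NANOG (medians of 6.86 and 12.8 CPM) and OTX2 (7.15 and 16.4) were also higher in the discs, against at most 1.31 in the EEM. SALL2 differed less, with 34.4 and 36.1 CPM in the discs and 23.8 and 27.2 in the EEM. SOX2, the last of these 5 disc markers, was at 0 in every library. The summed level of 7 trophoblast markers was 4739 to 32348 CPM in IVP and 9929 to 16253 in IVV discs, against 13353 to 34227 and 11119 to 16751 in the EEM. KRT8, a keratin of simple epithelia, made up most of this sum. The trophoblast genes CDX2 and IFNT2 had medians of 73.1 and 91.7 CPM in IVP and 45.9 and 88.1 in IVV discs, against 102 and 118 in IVP and 54.4 and 200 in IVV membranes, so their RNA was also present in the disc sections. The 5 mesoderm markers summed to 6.76 to 15.5 CPM in the ED of IVP and 13.5 to 122 in the ED of IVV embryos. The 6 hypoblast markers summed to 1025 to 2036 CPM in IVP and 463 to 1958 in IVV membranes, mostly APOA1. In IVP and IVV discs they summed to 510 to 1471 and 539 to 1334 CPM. Means in IVP and IVV membranes were 1335 and 938 CPM for APOA1 and 88.3 and 74.7 for GATA6. They were 27.5 and 28.5 for SOX17 and 6.74 and 6.46 for FOXA2. TTR was lower in IVP membranes (0.0099 ± 0.011 CPM against 2.18 ± 1.77). AFP was at 0 in the membranes and reached 51.1 CPM in an IVV disc. The part of cell composition in the results below was not tested. The ED of embryo IVPF13 had a negative correlation of its deviations across genes with its own EEM (r = -0.31) and a positive one with the EEM of IVPF14 (0.57), and values without IVPF13 are given where they bear on a result.

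Mitochondrial mRNA took a larger and more variable share of the reads than nuclear respiratory chain mRNA, except in both libraries of VE3, where the nuclear share was the larger (1.62% against 1.53% in the ED and 1.54% against 1.02% in the EEM). The 13 mitochondrial genes held 5.96% ± 2.26 (SD, n = 7) of all counts in the ED of IVP embryos and 5.21% ± 4.46 (n = 9) in that of IVV embryos. Shares in the EEM were 6.79% ± 2.74 (n = 6) and 5.17% ± 4.47 (n = 8). The nuclear members together held 1.22% ± 0.337, 1.5% ± 0.294, 1.40% ± 0.291 and 1.56% ± 0.316 in the same order. The SD of the mitochondrial share in IVV embryos was thus nearly as large as its mean in both tissues, while that of the nuclear share was a small part of its mean in all 4 groups.

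In single libraries, the lowest, median and highest mitochondrial shares in the ED were 3.27%, 5.73% and 10.2% for IVP and 1.53%, 3.72% and 15.2% for IVV embryos. In the EEM they were 4.15%, 6.50% and 11.5% for IVP and 1.02%, 3.26% and 13.9% for IVV embryos. The groups overlapped, but most IVV libraries lay low: 4 of 9 in the ED and 5 of 8 in the EEM were below every IVP library, 1 in each tissue was above every IVP library, and 2 in each tissue were above the IVP median. On the log2 scale the mean share was higher in IVP by 0.47 in the ED (pooled SD 0.85) and by 0.74 in the EEM (pooled SD 0.98), in both tissues less than the spread between embryos. Leaving out VE3, the lowest IVV embryo, gave 0.29 and 0.46, and leaving out VE19, the highest, gave 0.71 and 1.00. The nuclear share differed the other way, by -0.32 in the ED (pooled SD 0.36) and -0.15 in the EEM (pooled SD 0.29). These are shares of raw counts. With TMM scaling the nuclear members summed to 12347 ± 4223 CPM in IVP and 13619 ± 3565 in IVV discs. In the EEM the sums were 14941 ± 3355 and 17183 ± 5203 CPM. The log2 ratio of mitochondrial to nuclear counts was 2.26 ± 0.67 and 1.46 ± 0.90 in the ED of IVP and IVV embryos, and 2.21 ± 0.75 and 1.32 ± 1.04 in the EEM. With RNA from tissue pieces, more mitochondrial RNA per cell and more cells rich in it cannot be told apart.

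**Figure D1:**
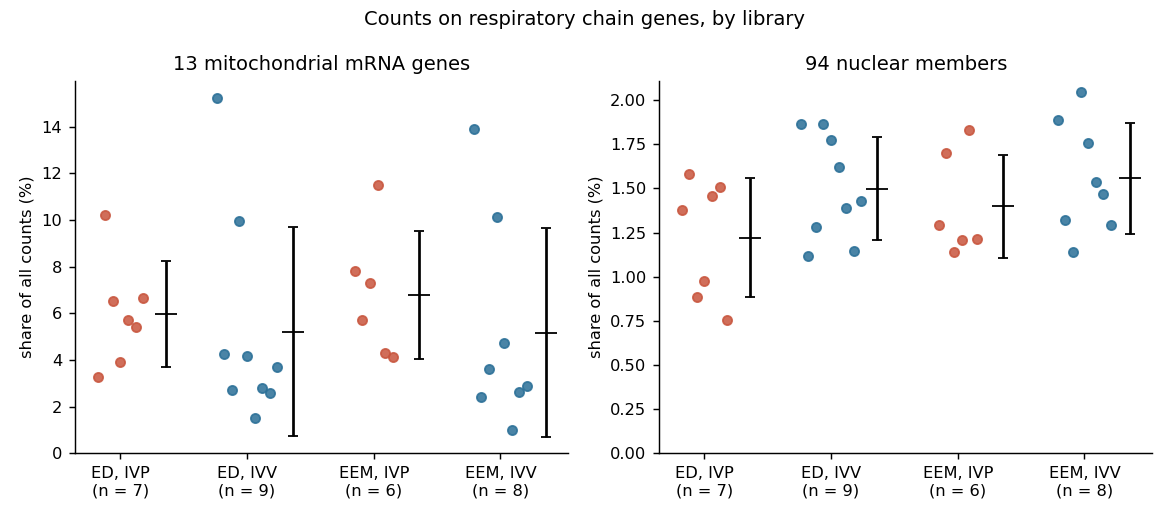
Share of all counts (%) on the 13 mitochondrial and the 94 nuclear respiratory chain genes, 1 point per library, with the mean and SD of each of the 4 groups. IVV embryos span the widest mitochondrial range, 1.53% to 15.2% in the ED and 1.02% to 13.9% in the EEM, and nuclear shares lie between 0.754% and 2.04%.

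In IVV embryos the mitochondrial share of VE19, VE28 and VE3 set them apart in both tissues. The ED and EEM of an IVV embryo differed by a median of 1.13-fold and at most 1.78-fold, although the share ranged 9.96-fold over the 8 discs and 13.6-fold over the 8 membranes. VE19 was highest in both tissues (15.2% in the ED, 13.9% in the EEM), VE28 next (9.94%, 10.1%), and VE3 lowest in both (1.53%, 1.02%). Without VE3 the ranges were 5.92-fold and 5.79-fold. The other 5 lay between 2.40% and 4.75%, with ranges of 1.66-fold and 1.98-fold, against at most 1.78-fold between the tissues of 1 embryo. In the 5 IVP embryos with both tissues, the tissues differed by a median of 1.79-fold and at most 2.39-fold, close to the ranges of 3.13-fold over discs and 2.67-fold over membranes. IVP10 had 3.27% in the ED and 7.80% in the EEM, IVP11 had 10.2% and 5.71%, and IVPF13 had 5.73% and 11.5%, while IVP14 (6.54%, 7.28%) and IVPF14 (5.40%, 4.30%) were closer to even. No IVP embryo held the same rank in both tissues, against 3 of 8 IVV embryos. Without IVPF13 the other 4 IVP embryos differed by a median of 1.52-fold between tissues, with ranges of 3.13-fold over discs and 1.81-fold over membranes, and 1 held its rank. This contrast between procedures was not tested. Nuclear shares in VE19 (1.87%, 1.89%) and VE28 (1.86%, 2.04%) were also in the upper part of their groups.

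**Figure D2:**
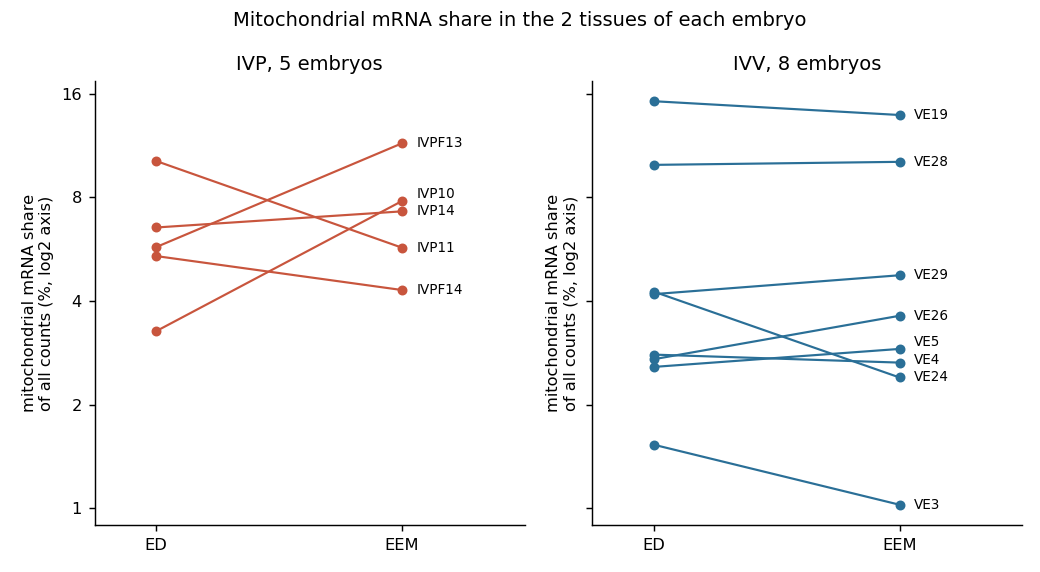
Mitochondrial mRNA share of all counts (%, log2 axis) in the ED and EEM of the 5 IVP and 8 IVV embryos with both tissues, each line joining the libraries of 1 embryo. VE19 (15.2%, 13.9%) and VE28 (9.94%, 10.1%) lie on top and VE3 (1.53%, 1.02%) at the bottom of the IVV embryos in both tissues, while the other 5 IVV lines cross within 2.40% to 4.75%. Lines of IVP embryos also cross.

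Reads were not spread evenly over the mitochondrial genome. Over all 30 libraries COX1, the catalytic subunit of complex IV, took 40.9% ± 4.75 of mitochondrial mRNA counts (range 28.9% to 48.5%), COX3 16%, and cytochrome b (CYTB) 7.86%. At the other end were ND3 (1.90%), ATP8 (1.25%), ND6 (1.15%) and ND4L (0.71%). Counts were not divided by length, and ND4L and ATP8 overlap their neighbours, so these shares say how reads fell within a library and give no order of levels. ND5, a proton-pumping subunit of complex I, took 4.15% in the ED of IVP and 2.98% in the ED of IVV embryos, against 3.99% and 3.15% in the EEM.

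In the ED, IVP and IVV embryos were compared to find which respiratory chain genes differed with the procedure. All 13 mitochondrial genes had positive log2 changes (IVP minus IVV), from 0.63 for COX1 to 1.27 for ND5, with a median of 0.81 against -0.01 over all genes. That median was 0.39 without the surrogate variable, 0.43 with total count scaling and 1.47 with XIST as a covariate. Among them ND5 was called higher in IVP. The nuclear members leaned the other way, with 75 of 92 tested at negative values, as were 50.8% of all genes. Their median was -0.16 (-0.47 with total count scaling, where that of all genes was -0.11), and NDUFB11, an accessory subunit of complex I, was called lower. By the quasi-likelihood test of edgeR, with Benjamini-Hochberg adjusted p under 0.05, 1 of 13 mitochondrial and 0 of 92 nuclear members were higher, where 1.4% of all 15733 genes tested were, and 0 and 1 were lower, where 4.95% were. At an unadjusted p under 0.05 there were 11 mitochondrial and 5 nuclear members, and 2902 of all 15733 genes. COX4I2 and COX7ALP1 had too few reads to be tested. The mitochondrial rRNA genes KEH36_r01 and KEH36_r02 did not share the sign of the mRNAs in the ED: they held 0.0692% ± 0.0447 of counts in IVP and 0.116% ± 0.0765 in IVV discs, with log2 changes of -0.41 and -0.60 (adjusted p = 0.486 and 0.326). In the EEM these changes were 0.28 and 0.08 (adjusted p = 0.957 and 0.991).

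The lowest, median and highest ND5 levels in the ED were 1171, 2530 and 5324 CPM in IVP and 386, 699 and 6213 CPM in IVV embryos. The ranges overlapped, since the highest library was the IVV disc of VE19, whereas the medians stood well apart. The fitted log2 change was 1.27 (SE 0.37, adjusted p = 0.0423). That call was lost when any 1 of 10 of the 16 embryos was left out (adjusted p up to 0.220, without IVP11) and without the surrogate variable (log2 change 0.63, adjusted p = 0.586), when no mitochondrial gene was called in the ED. It was also lost with DESeq2 (1.29, 0.0647), with XIST as a covariate (1.95, 0.0528), with 10 counts in every library (1.28, 0.0603) and with total count scaling (0.89, 0.0714), changes of like or larger size in all but the last.

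NDUFB11 in the ED had a lowest, median and highest level of 23.3, 56.7 and 92.2 CPM in IVP and 45.3, 74.4 and 141 CPM in IVV embryos. IVP discs were shifted down with much overlap, by a log2 change of -0.72 (SE 0.19, adjusted p = 0.0223). In the EEM its change was -0.27 (adjusted p = 0.762). The call in the ED was lost without IVPF13, IVPF14 or VE6 (adjusted p = 0.0648, 0.0725 and 0.0591), and without IVP11 the count of nuclear members called lower was 7. The call was also lost without the surrogate variable (log2 change -0.79, adjusted p = 0.160) and with 10 counts in every library (-0.64, 0.0540). In the libraries whose titles end in C alone it was lost too (-0.61, 0.237). NDUFB11 is X-linked, as are COX7B and NDUFA1. COX7B, a subunit of complex IV, had changes of -0.46 in the ED (adjusted p = 0.208) and -0.39 in the EEM (adjusted p = 0.443). XIST, the RNA that coats the inactive X of female cells, was at most 0.591 CPM in every IVP library and had medians of 55.9 and 149 CPM in the ED and EEM of IVV embryos, with VE3 and VE5 low. With XIST as a covariate the NDUFB11 change was -0.67 (adjusted p = 0.207). Since 2 IVV embryos were as low in XIST as the IVP embryos, XIST and procedure were confounded in part, and the part of sex was not tested.

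In the EEM, 9 of the 13 mitochondrial genes were called higher in IVP embryos, from complexes I (6 of 7), IV (2 of 3) and V (1 of 2), and the single complex III gene, CYTB, was just outside at an adjusted p of 0.0510. All 13 changes were positive, with a median of 1.02 and a range of 0.67 to 1.40. None of the 92 nuclear members tested was called in either direction, and 0 had an unadjusted p under 0.05, as had 2016 of all 14718 genes, with a median of -0.08 against 0.00 over all genes. Among all 14718 genes tested, 2.29% were called higher and 1.52% lower. That more genes were called than in the ED does not show a difference between tissues, since the interaction test called none of them.

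ND5 again led. Its lowest, median and highest levels in the EEM were 1458, 2480 and 5715 CPM in IVP and 349, 944 and 6350 CPM in IVV embryos. The log2 change was 1.40 (SE 0.31, adjusted p = 0.0074). COX2, which carries the site where cytochrome c hands over electrons, had 2329, 3796 and 7989 CPM in IVP and 482, 1500 and 9983 CPM in IVV embryos, a change of 1.22 (SE 0.28, adjusted p = 0.0121). For both genes the highest membrane was that of VE19, and the IVV median lay below the lowest IVP library. The other complex I genes called were ND2 (1.26, adjusted p = 0.0146), ND6 (1.21, 0.0133), ND1 (1.12, 0.0456), ND4 (1.02, 0.0347) and ND4L (0.98, 0.0272). COX3 of complex IV rose by 1.01 (adjusted p = 0.0403) and ATP6, the proton channel subunit of complex V, by 1.05 (0.0275). Not called were ATP8 (0.90, adjusted p = 0.0784), ND3 (0.99, 0.106) and COX1 (0.67, 0.328).

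These 9 calls depended on the surrogate variable, a covariate that sva estimates from the counts. Its highest values in the EEM were those of VE19 (0.69) and VE28 (0.36), the 2 IVV membranes with the highest mitochondrial shares. In the ED its lowest values were those of IVP11 (-0.49), VE19 (-0.49) and VE28 (-0.27), the discs with the highest shares. Without it the median mitochondrial change was 0.45 and 0 of 13 genes were called in the EEM, as were 0 in the libraries whose titles end in C alone, a smaller set (median change 1.11). With XIST as a covariate ATP6, COX3, ND1, ND4, ND4L and ND6 lost their call (adjusted p of 0.0639 to 0.273), although the median change was 1.41. Leaving out IVP14 left 2 calls, IVPF13, VE24 or VE3 left 4 and IVP10 or VE29 left 5, and the count reached 12 without IVP11 or IVPF14. ND5 was called in all 14 fits with 1 embryo left out, and COX2 in 13, all but that without IVP14 (adjusted p = 0.0619).

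**Figure D3:**
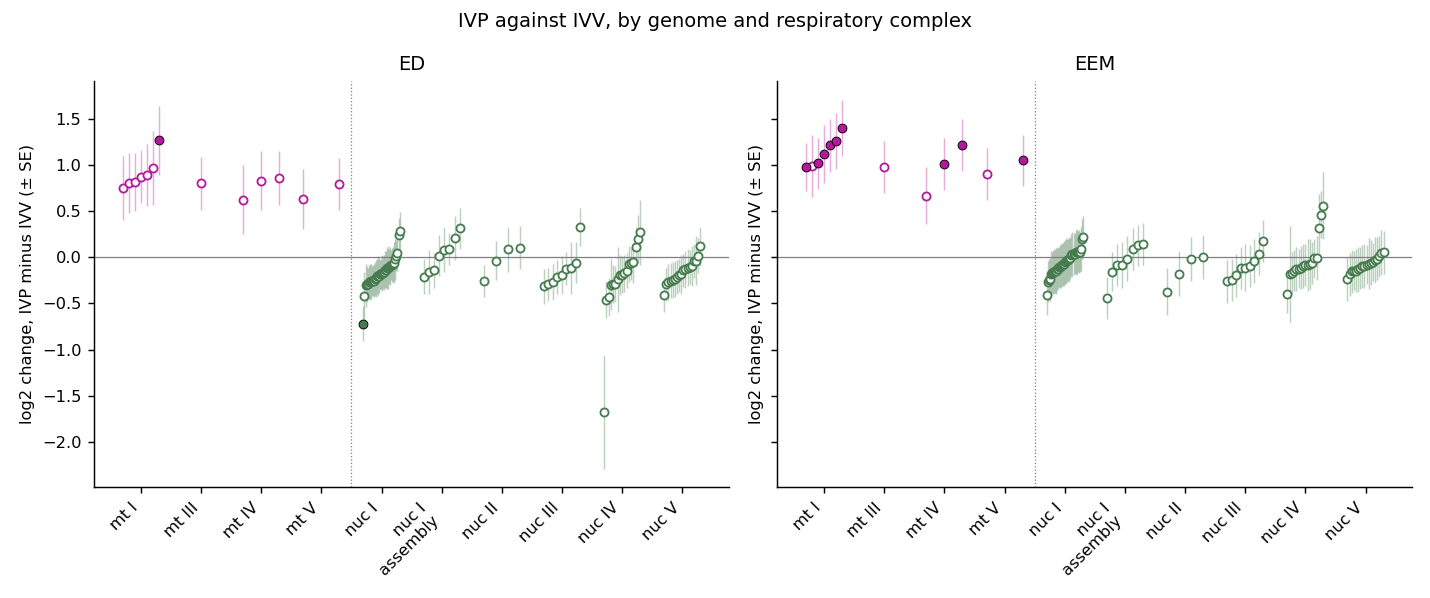
Log2 change between IVP and IVV embryos (positive is higher in IVP) with its SE for each member, grouped by genome and complex, in the ED and the EEM. Filled points with a dark edge passed the test: ND5 and NDUFB11 in the ED and 9 mitochondrial genes in the EEM. Mitochondrial points lie between 0.63 and 1.40, and most nuclear points lie slightly below 0.

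Between the tissues, nuclear members were called and no mitochondrial gene was. In the 13 embryos with both tissues, with the embryo as a block, 40 of 92 nuclear members were lower in the ED than in the EEM and 2 were higher. Of all 14898 genes tested, 8.16% were lower in the ED and 12.8% higher. The median change (ED minus EEM) was -0.29 for nuclear members and -0.08 for all genes, and 86 of the 92 were negative, as were 61.2% of all genes. The mitochondrial genes had a median of -0.12 (range -0.33 to 0.05), with 0 of 13 called by edgeR and 0 at an unadjusted p under 0.05, where 5090 of all 14898 genes were. With scaling by total count both their median and that of all genes were positive (0.07 and 0.10). Summed nuclear CPM were lower in the ED in 12 of 13 embryos, by 0.26 ± 0.22 on average on the log2 scale, but as a share of raw counts in 8 of 13.

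The lower genes belonged to complexes I, III, IV and V. In complex III 6 of 9 members fell, among them CYC1, the cytochrome c1 subunit (-0.49, adjusted p = 0.0091), and UQCRB (-0.45). In complex V 10 of 18 fell, in complex IV 7 of 17, in complex I 14 of 36 and among complex I assembly factors (NDUFAF genes) 3 of 8. None of the 4 complex II subunits was called. SDHA and SDHB, the catalytic pair that oxidizes succinate, changed by -0.01 and -0.14 (adjusted p = 0.947 and 0.472), and the membrane anchors SDHC and SDHD by 0.03 and -0.08 (0.904 and 0.725). Whether complexes differ from each other was not tested.

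The smallest p belonged to NDUFA2, an accessory subunit of the NADH-oxidizing arm of complex I. Its lowest, median and highest levels were 23.0, 36.7 and 51.5 CPM in the ED and 38.0, 52.7 and 68.0 CPM in the EEM of IVP embryos. In IVV embryos they were 19.2, 47.3 and 86.2 CPM in the ED and 29.9, 63.1 and 128 CPM in the EEM. It was lower in the ED in 12 of 13 embryos although the groups overlapped, with a log2 change of -0.51 (SE 0.10, adjusted p = 0.0009). UQCRB, a complex III subunit that helps bind ubiquinone, changed by -0.45 (SE 0.10, adjusted p = 0.0019), and its medians were 125 and 178 CPM in the ED and EEM of IVP embryos and 131 and 168 CPM in those of IVV embryos. NDUFA5 (-0.49, SE 0.11, adjusted p = 0.0030), ATP5MJ, a small subunit of the membrane part of ATP synthase (-0.47, SE 0.11, 0.0037), and NDUFB3 (-0.37, SE 0.09, 0.0047) followed. UQCRB, NDUFA5 and ATP5MJ were lower in the ED in 12 of 13 embryos and NDUFB3 in 13 of 13.

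Among the alternative subunits of complex IV, COX4I1 had medians from 410 to 545 CPM over the 4 groups, while COX4I2, the form known to be induced at low oxygen, had 0 to 16 counts in a library. COX4I1 fell by 0.35 on the log2 scale in the ED (adjusted p = 0.0109), as did COX6A1 (-0.35, 0.0130), COX6B1 (-0.35, 0.0255), COX7A2 (-0.47, 0.0386) and COX8A (-0.38, 0.0160). COX6B2 changed by -0.19 (adjusted p = 0.299) and COX7A2L, which helps join complexes III and IV, by -0.30 (0.157). Of the 3 genes for the rotor ring subunit c of ATP synthase, ATP5MC1 (-0.34, adjusted p = 0.0258) and ATP5MC2 (-0.30, 0.0349) fell and ATP5MC3 did not pass (-0.29, 0.0639). ATP5F1E, the epsilon subunit, fell by 0.49 (adjusted p = 0.0057), while ATP5IF1, the inhibitor of ATP hydrolysis, had -0.27 (0.0729). The alpha and beta subunits of the catalytic head were not called: ATP5F1A changed by -0.10 (adjusted p = 0.595) and ATP5F1B by 0.10 (0.662). ATP5F1A, the nuclear member with the most counts, had means of 1502 ± 411, 1414 ± 359, 1503 ± 290 and 1590 ± 514 CPM in the ED of IVP and IVV and the EEM of IVP and IVV embryos. NDUFC1 fell (-0.41, adjusted p = 0.0460), and NDUFC2 (-0.19, 0.221), NDUFA4 (-0.22, 0.133) and NDUFB11 (-0.26, 0.0697) did not pass. COX7B fell by 0.46 (adjusted p = 0.0070). The calls nearest the threshold rested on single embryos: ATP5MC1 was lost without IVP14, VE29 or VE5 (adjusted p at most 0.0703), COX6B1 without IVP14, VE28 or VE5 (0.0584), and ATP5MC2 without IVP10, IVPF14, VE24, VE29 or VE4 (0.0708). COX7A2 was called in 7 of 13 fits with 1 embryo left out (lost without IVP14, IVPF13, VE28, VE29, VE4 or VE5, at most 0.0822) and NDUFC1 in 5 of 13 (lost without IVP14, IVPF14, VE19, VE24, VE28, VE3, VE4 or VE5, at most 0.108).

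The 2 nuclear members called higher in the ED were sparse. COX7A1, the heart and muscle form of subunit VIIa, had medians of 1.02 and 0.796 CPM in the ED and 0.668 and 0.456 CPM in the EEM of IVP and IVV embryos. Its log2 change was 0.95 (SE 0.25, adjusted p = 0.0104), and it was lower in the ED in 2 of 13 embryos. NDUFA4L2, a hypoxia-induced relative of the complex IV subunit NDUFA4, had 0 to 76 counts in a library and passed the filter on low counts through the ED, so its call describes the tissue where it was high. Its medians were 0.128 and 0.474 CPM in the ED and 0.0859 and 0.0791 CPM in the EEM, a change of 2.07 (SE 0.60, adjusted p = 0.0189). Without VE19 or without VE28, 1 nuclear member was called higher in the ED. In the ED alone, NDUFA4L2 was at -1.68 between IVP and IVV (SE 0.62, adjusted p = 0.115), and in the EEM it had too few reads to be tested.

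**Figure D4:**
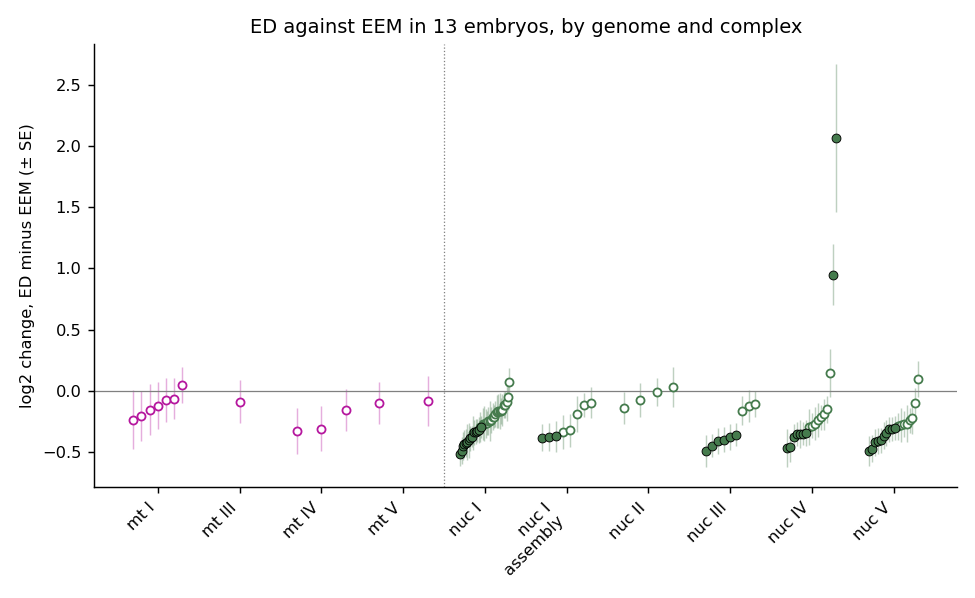
Log2 change between ED and EEM (positive is higher in the ED) with its SE for each member, grouped by genome and complex, in 13 embryos. Filled points with a dark edge passed the test: 40 nuclear members below 0, COX7A1 and NDUFA4L2 above it, and no mitochondrial gene.

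**Figure D5:**
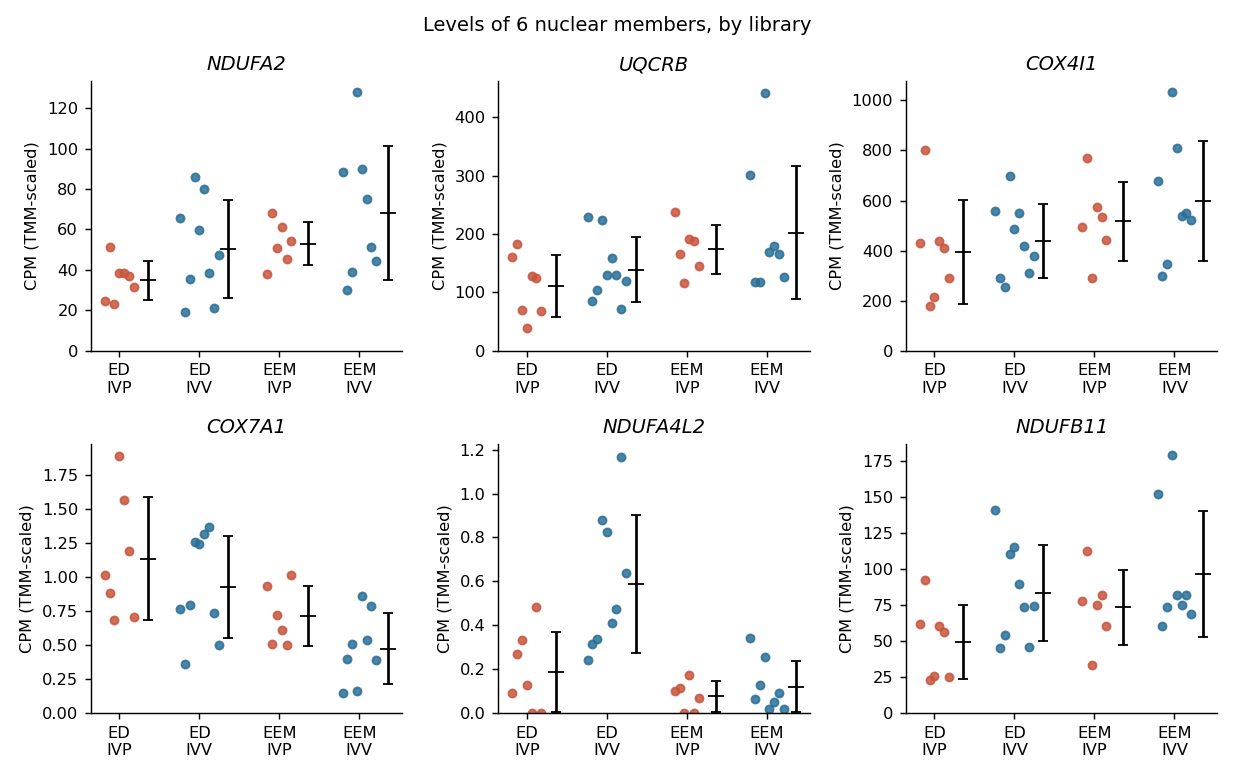
CPM of NDUFA2, UQCRB, COX4I1, COX7A1, NDUFA4L2 and NDUFB11 in each library, with the mean and SD of the 4 groups. NDUFA2, UQCRB and COX4I1 have lower medians in the ED than in the EEM under both procedures, COX7A1 and NDUFA4L2 stay near or under 2 CPM, and NDUFB11 is lowest in the ED of IVP embryos.

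The number of calls between tissues depended on scaling and on pairing. With scaling by total count alone, 4 of 92 nuclear members and 208 of all 14898 genes (1.4%) were called lower, their median went from -0.29 to -0.10, the median of all genes moved from -0.08 to 0.10, and the share of all called genes that were higher in the ED went from 61.1% to 92.7%. Without the embryo as a replicate block, 0 nuclear members and 87 of all 14898 genes (0.584%) were called lower, while their median was -0.27, close to that with the block. The count was 25 without VE5 and 50 without IVP11, and 39 without IVPF13. TMM factors were lower in the ED in 1 of 13 embryos, and cytosolic ribosomal protein genes, as a share of counts, were lower in the ED in 9 of 13. The part of RNA composition in this difference was not tested.

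Within IVV embryos alone 22 of 93 nuclear members were lower in the ED and 2 higher (6.55% and 15.6% of 16784 genes), with a median of -0.30. Within the 5 IVP embryos 1 was lower, NDUFA2 (-0.66, adjusted p = 0.0217), and 0 were higher (0.649% and 4.18% of genes), with a median of -0.35 and 36 members at an unadjusted p under 0.05, as were 2848 of all 16784 genes. Without IVPF13 the IVP embryos gave 0 calls, a median of -0.37 and 30 members at an unadjusted p under 0.05. The test of the difference itself, the interaction of tissue and procedure by edgeR, called 0 of 13 mitochondrial and 0 of 93 nuclear members, where 1.02% of all genes were called. At an unadjusted p under 0.05 there were 0 mitochondrial and 1 nuclear member, NDUFAF1 (0.55, adjusted p = 0.411), and 1727 of all 16784 genes. All 13 mitochondrial interaction values were negative, with a median of -0.27, and the nuclear median was -0.00. Over all genes 54.1% of the values were negative. Without IVPF13 the mitochondrial median was -0.05, with 8 of 13 negative, and again 0 members were called.

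Other genes that make or feed the chain were counted against the same shares of all genes, 8.16% lower and 12.8% higher in the ED. Of 76 proteins of the mitochondrial ribosome, which translates the mitochondrial mRNAs, 22 were lower in the ED and 0 higher, led by MRPS2 (-0.45, adjusted p = 0.0025), MRPL27 (-0.36, 0.0107) and MRPS17 (-0.37, 0.0130). Of 45 assembly factors 7 fell and 0 rose, among them COX17, a copper chaperone of complex IV (-0.38, 0.0103), COA4 (-0.42, 0.0119) and COX14 (-0.38, 0.0161). Of 17 genes of mitochondrial RNA processing 4 fell, with SLIRP, which stabilizes mitochondrial mRNA (-0.46, 0.0062), TRMU (-0.41, 0.0132) and HSD17B10 (-0.31, 0.0244) among them. In mitochondrial transcription and replication 3 of 16 fell, including MTERF3 (-0.48, 0.0037) and POLG2 (-0.47, 0.0190), and the nuclease MGME1 rose (0.45, 0.0181). In the electron carrier list 2 of 16 were lower and 1 higher: CYCS, cytochrome c (-0.44, 0.0444), COQ7 (-0.33, 0.0413) and COQ8A, both of ubiquinone synthesis (1.34, 0.0001 for COQ8A). CYCS and COQ7 were each called in 5 of 13 fits with 1 embryo left out, and both were lost without IVP14, IVPF14, VE19, VE26, VE28, VE29, VE4 or VE5 (adjusted p at most 0.103 for both). The HSD17B10 call was lost without VE29 or VE5 (adjusted p = 0.0518 and 0.0682). Of 10 hypoxia genes 3 were higher in the ED and 0 lower: BNIP3L (0.51, 0.0062), PDK1 (0.64, 0.0095) and NDUFA4L2, the sparse member described above. ESRRB (1.42, 0.0049) and ESRRG (2.39) were the 2 of 11 regulators that rose. Of the 20 genes of these lists that were named and called, 13 lost their call with total count scaling (all but MRPS2, MGME1, COQ8A, BNIP3L, PDK1, ESRRB and ESRRG) and 17 without the replicate block. With 10 counts in every library 4 lost it (COQ7, CYCS, HSD17B10 and SLC25A6). The adenine nucleotide carrier SLC25A6 fell (-0.33, 0.0208), and 0 of 13 citric acid cycle genes were called by edgeR, with 3 at an unadjusted p under 0.05.

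Between IVP and IVV, 1 of 13 citric acid cycle genes and 1 of 16 electron carriers were called lower in the ED, where 4.95% of all genes were, and 1 of 13 citric acid cycle genes and 1 of 11 regulators in the EEM, where 1.52% were. PPARGC1A, a coactivator of nuclear respiratory genes, was lower in the EEM of IVP embryos, at 2.79 ± 1.2 CPM (n = 6) against 5.67 ± 0.348 (n = 8). No IVP membrane reached the lowest IVV membrane, and the log2 change was -1.07 (SE 0.27, adjusted p = 0.0229), lost without IVP11 (0.0509) or IVPF9 (0.0581). It was also lost without the surrogate variable (-1.02, 0.0574), with XIST as a covariate (-0.89, 0.527), with the title letter as a term (-1.07, 0.0517) and with title letter C alone (-1.15, 0.263). In the ED it was -0.84 (adjusted p = 0.0758). IDH3G, an X-linked subunit of the citric acid cycle enzyme isocitrate dehydrogenase, was lower in IVP in the ED (-0.82, adjusted p = 0.0305) and the EEM (-0.95, 0.0235), and with XIST as a covariate its changes were -0.48 and -0.85 (0.619 and 0.517). The ED call was lost without IVPF13, IVPF14, IVPF15 or VE6 and the EEM call without IVP11 or VE4 (adjusted p at most 0.0796 and 0.0988). Both were lost with the title letter as a term (-0.78, 0.0560 and -0.93, 0.0598) and with title letter C alone (-0.80, 0.153 and -0.88, 0.307), and the ED call also without the surrogate variable (-0.95, 0.0623), with 2 of them (-0.83, 0.0518) and with 10 counts in every library (-0.76, 0.0626). COQ8A was lower in the ED of IVP embryos (-1.33, adjusted p = 0.0207) and had a change of -0.51 in the EEM (0.648). The ED call was lost with XIST as a covariate (-1.47, 0.0753) and with title letter C alone (-1.43, 0.0730). No gene was called between IVP and IVV in the lists of the mitochondrial ribosome, assembly factors, mitochondrial RNA processing, mitochondrial transcription and replication, hypoxia, or uncoupling and nucleotide exchange.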

How the data were processed

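Poly(A)-selected, non-stranded RNA libraries of 30 tissue samples were sequenced as paired reads on DNBSEQ. The authors filtered reads with SOAPnuke, used FastQC 0.11.9 and Trimmomatic, aligned with STAR 2.7.0b to ARS-UCD1.3 and deposited raw counts per Entrez gene from featureCounts (Subread 2.0.3), with no filter or scaling. Options of featureCounts are not given in the sources used here. Among small counts 2 was more frequent (19289 entries) than 1 (15257) or 3 (13344), so halved counts were tried. Reads of near-identical copies, overlapping genes and antisense genes cannot be told apart, and poly(A) selection may weigh mitochondrial mRNAs, whose tails are short, unlike nuclear ones.

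Gene IDs were matched to RefSeq symbols (assembly ARS-UCD2.0), which named 31630 IDs with 99.5% of counts, and no coordinates were used. No pair of libraries was identical (0 pairs). Counts were analysed with edgeR 4.0.16 (R 4.3.3): TMM, filterByExpr at 10 counts, quasi-likelihood tests over all genes and Benjamini-Hochberg adjustment at 0.05. IVP and IVV were compared within each tissue (16 ED, 14 EEM libraries) with 1 surrogate variable from svaseq (sva 3.50.0). The study used sva to control for morphology, without giving the number of surrogate variables. ED and EEM, and the interaction, were tested in the 26 libraries of 13 embryos with the embryo as a block. This pairing comes from the titles, which name the same embryo in both tissues. Deviations from group means correlated across genes between tissues of an embryo at r of 0.31 to 0.77 in IVV and -0.31 to 0.75 in IVP embryos, above 0.1 in 12 of 13. CPM use TMM factors over all libraries. Summed levels got no test. Precision rests on the number of embryos, each named as a separate conceptus, and on depths of 48713218 to 63037371 counts. The embryos of each procedure came from only a few cows, so they are not independent replicates of it. The tests of IVP against IVV took no account of this.

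Members and lists were chosen with earlier results of these data known. Named were all mitochondrial genes, up to 5 called nuclear members per comparison and direction with the smallest p, sets of alternative subunits, complex II, X-linked members, the most and least abundant member, those nearest the limit, and up to 3 called genes per other list. NDUFAF1, CYC1 and ATP5F1B were named after their values were seen. A result on 1 further member is not reported here. Alternatives were other surrogate variables, XIST or the title letter (A or C, meaning not stated) as a term, DESeq2 1.42.0, other scalings and filters, and leaving out each embryo. Scripts were tested on simulated data. Promoter motifs and sequences were not analysed here.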

Additional observations from a re-analysis of the deposited data

Results flagged for a closer look

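Within the 4 groups, the highest or lowest library was set against the others by Dixon's criterion at the 5% level. This was done for each named gene, the mitochondrial and nuclear shares and their log2 ratio. That level assumes normal values, which CPM need not follow, and genes of 1 library are not independent. The number of groups that met the criterion therefore cannot be set against a chance rate. Of 268 groups tested, 24 met the criterion, and 20 of these 24 were high values in the ED of 2 embryos. No share or ratio met it. No group difference between tissues or procedures was added to these, since no member passed the interaction test.

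The IVV disc of VE19 was high for 8 mitochondrial genes. COX1 was at 75894 CPM against 6161 to 39047 in the other IVV discs, COX2 at 9473 against 684 to 4636, ND1 at 7623 against 507 to 3489, and ND2 at 6182 against 421 to 3124. ND3 was at 3456 against 194 to 1588, ND4L at 1143 against 97.9 to 603, ND5 at 6213 against 386 to 2468, and ND6 at 1718 against 162 to 821. The same disc was high for nuclear genes: ATP5MC1 at 552 against 85 to 292, COX8A at 693 against 92.8 to 332, and SLC25A6 at 796 against 456 to 622.

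Among IVP discs, IVP11 was high for 6 mitochondrial genes. ATP6 was at 9189 CPM against 2248 to 4183, COX2 at 6486 against 1807 to 3410, COX3 at 21996 against 5829 to 11763, CYTB at 10805 against 3105 to 5156, ND4L at 1073 against 269 to 494, and ND5 at 5324 against 1171 to 2609. It was also high for COX4I1 (802 against 180 to 440), COX7A2L (405 against 93.6 to 201) and SLIRP (105 against 20.9 to 55.9).

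In the EEM, COX7A2L was at 388 CPM in VE24 against 163 to 269, SDHB at 224 in VE28 against 66.6 to 139, and SDHD at 172 in IVPF14 against 101 to 127 and at 51.4 in VE29 against 114 to 169. Causes of these values were not tested.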

How the results depend on the processing

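No named gene that was called turned its direction under any alternative run. In the ED, the count of mitochondrial genes called higher in IVP went from 1 to 0 with 10 counts in every library, total count scaling or no surrogate variable, 2 with no filter or XIST as a covariate, 4 with DESeq2, 5 with 2 surrogate variables and 6 in libraries of title letter C (0 to 3 with 1 embryo left out); ND5 was not among those called with XIST or DESeq2. The 1 nuclear member called lower there became 0 with 10 counts in every library, XIST, no surrogate variable or title letter C alone, and 5 with total count scaling (0 to 7 with 1 embryo left out). In the EEM, the 9 mitochondrial genes became 3 with XIST, although their median change went from 1.02 to 1.41, and 0 without the surrogate variable or with title letter C alone, while the other alternatives gave 8 to 12 (2 to 12 with 1 embryo left out). Between tissues, the 40 nuclear members lower in the ED became 4 with total count scaling and 0 without the embryo pairing (no replicate block), and 25 to 50 with 1 embryo left out. The 2 nuclear members higher in the ED became 1 with halved counts and 0 with 10 counts in every library (1 to 2 with 1 embryo left out). Apart from fewer genes or samples in some of these, the causes were not tested. Of 37 genes named and called between tissues, 32 lost their call without the block and 24 with total count scaling. Of 11 in the EEM between procedures, 10 lost it without the surrogate variable. Depth limits COX4I2, which was not tested, and COX7ALP1 and NDUFA4L2, whose fits rest on few reads.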
